A study of Homo sapiens with 2 samples.

Results

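The sites described here are clusters of peaks of the active YAP mutant YAP-5SA: places where 3 or more peaks of the list lay close together on a chromosome. Intervals were sorted by position and joined where the gap to the next interval was at most 12.5 kb, and every group of at least 3 intervals was kept. This gave 189 clusters with 620 peaks, or 6.60% of the 9393 peaks in the list. The other 8773 peaks were 1550 peaks in pairs and 7223 single peaks. The members were selected on the positions of the intervals alone. The number and closeness of the peaks are therefore given as a description, while heights did not enter the rule.

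The samples were 1 library of DNA recovered on Flag-M2 beads and 1 library of input DNA, both from MCF10A cells, a human mammary epithelial line grown with horse serum, EGF, insulin, hydrocortisone and cholera toxin. The first came from cells expressing Flag-tagged YAP-5SA. The sources used here do not give how the mutant was introduced, its level beside the cells' own YAP or whether the cells were a clone. The source label calls the cells non-transformed, whereas the cell type label calls them a breast cancer line. Neither library has a replicate, and the peak list was deposited with the immunoprecipitated library. The read depth is unknown, and reads of the input were not analysed here.

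YAP is a transcriptional co-activator that the Hippo pathway keeps out of the nucleus when its kinases LATS1 and LATS2 phosphorylate it. In the 5SA mutant the serines that LATS kinases modify are replaced by alanine, so the protein escapes this control. YAP does not contact DNA itself. It is brought to DNA mainly by TEAD transcription factors, often at distal enhancers that also bind AP-1 factors. Close enhancers are often joined over the same distance as used here when long enhancer domains, called super-enhancers, are defined. Those definitions rest on marks such as histone acetylation or Mediator, which were not measured in this series, so a cluster below is a group of close YAP-5SA peaks and nothing more.

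Most clusters were small. There were 149 clusters of 3 peaks, 33 of 4, 3 of 5, 2 of 6 and 2 of 7. They spanned a median of 12.4 kb, with an interquartile range of 8.09 to 17.5 kb and extremes of 2.44 and 31.6 kb. The peaks themselves filled a median of 18.9% of the span, so the greater part of a typical cluster lay between peaks. In 17 clusters the peaks covered at least 50% of the span, and in 9 clusters no gap reached 1000 bp.

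Neighbouring summits inside clusters lay a median of 4704 bp apart, from 592 to 13675 bp over 431 neighbouring pairs. The gap between neighbouring intervals was under 1000 bp for 94 of them (21.8%), from 1000 bp to under 5000 bp for 150 (34.8%) and 5000 bp or more for 187 (43.4%). Gaps within clusters had a median of 4022 bp, and the gaps of the 775 isolated pairs of peaks had a median of 3987 bp. A gap under 200 bp occurred at 26 places, each in a different cluster, and there the summits lay between 592 and 1408 bp apart. Whether such neighbours are separate binding sites or 1 enrichment divided by the peak caller was not tested. When intervals under 200 bp apart were counted as 1 peak, 169 clusters with 554 peaks were left.

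The 2 largest clusters held 7 peaks each and had unlike profiles. Positions are those of hg19. The cluster on chromosome 19 from 39127338 to 39157242 spanned 29.9 kb, and its peaks had heights of 24, 39, 19, 22, 15, 35 and 37 in order along the chromosome. Height here is the number that the authors deposited beside each summit; its unit is not stated, and its median over the whole list was 24. This cluster thus mixed 3 peaks well above that median with 3 below it. The cluster on chromosome 1 from 228716985 to 228742635 spanned 25.7 kb and had heights of 21, 22, 24, 20, 20, 25 and 12. None of its peaks was more than 1 unit above the median of the list. Its intervals were broad, at 1597, 916, 745, 1067, 1037, 785 and 798 bp, where the whole list had a median of 611 bp.

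The 2 clusters of 6 peaks were led by tall peaks. On chromosome 3 from 134027234 to 134053014 the heights were 22, 34, 26, 53, 20 and 39, and the tallest of these peaks was also the widest, at 1961 bp. The summed height of this cluster, 194, was the highest of all 189 clusters. On chromosome 5 from 148344982 to 148366609 the heights were 45, 13, 39, 29, 28 and 29, with a sum of 183. A peak of height 13 therefore stood between peaks of height 45 and 39, at summit distances of 7200 and 1952 bp.

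The 3 clusters of 5 peaks each held 1 peak that stood out. On chromosome 9 from 419315 to 448165 the heights were 27, 26, 26, 53 and 18. The fourth peak was as tall as the first 2 together. On chromosome 1 from 65878579 to 65902186 they were 17, 29, 45, 32 and 25, highest in the middle. On chromosome 5 from 57111792 to 57138309 they were 16, 28, 22, 38 and 22, alternating along the cluster.

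**Figure D1:**
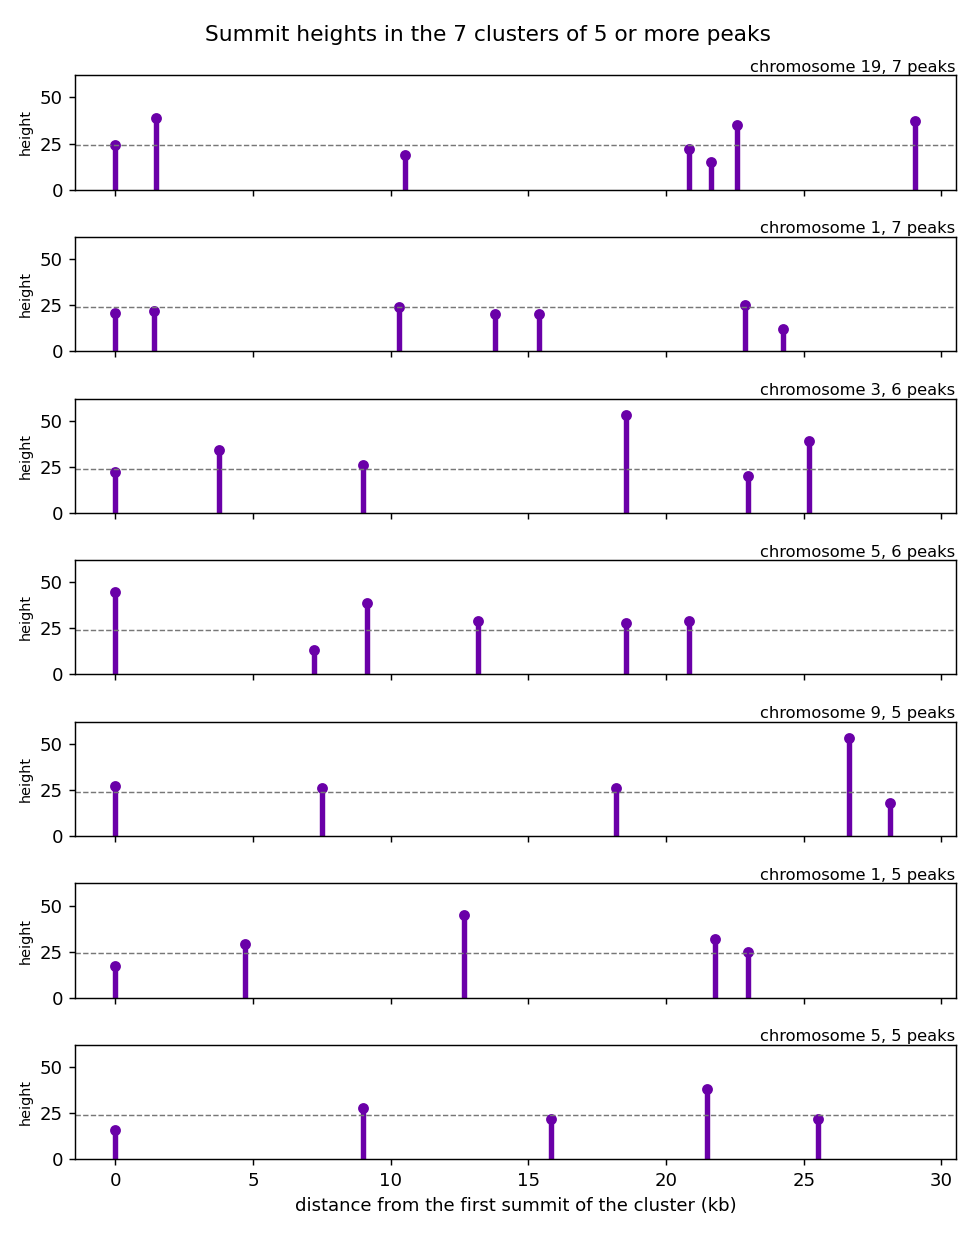
Height at each summit (vertical axis, the authors' score without a unit) against the distance from the first summit of its cluster in kb, for the 7 clusters of 5 or more peaks. The dashed line marks the median height of the whole list, 24. The 7 peaks of the second panel, on chromosome 1, lie between 12 and 25, while every other cluster has a peak of 38 or more.

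The 3 highest sums belonged to clusters of 6 or 7 peaks, and the next to clusters of 4 and 3. On chromosome 5 from 167715191 to 167742542 a cluster of 4 had heights of 42, 58, 24 and 46, with a sum of 170, and it was the only cluster with 3 peaks of height 40 or more. On chromosome 5 from 148289923 to 148294842, 3 peaks of heights 34, 76 and 57 lay within 4.92 kb and summed to 167. Its peaks filled 66.4% of its span. On chromosome 5 from 125709359 to 125730618 the heights were 59, 35, 30 and 38. On chromosome 1 from 145092261 to 145115477 they were 35, 23, 35 and 63, and the last of these intervals was 2007 bp wide, the widest peak in any cluster. On chromosome 8 from 131495496 to 131512111 they were 30, 34, 41 and 41. This last cluster was the most even of the 10 with the highest sums. Its sum of 146 was shared by a cluster of 4 on chromosome 20 from 1785407 to 1806827, which was left out of the 10 by its place in the order of chromosomes. Of the 10, 4 were on chromosome 5.

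The 5 clusters with the tallest peaks also held lower ones, which follows in part from picking them by their tallest peak. The tallest peak in any cluster, with a height of 91 where the whole list reached 100, ended a cluster on chromosome 20 from 60924877 to 60937782, where the other peaks had heights of 29 and 23. On chromosome 5 from 149848995 to 149854187 the heights were 36, 23 and 74. On chromosome 19 from 2532607 to 2541409 they were 20, 20 and 73. On chromosome 7 from 46166518 to 46185560 they were 13, 47 and 71. This cluster had the largest ratio of all clusters, its tallest peak being 5.46 times its shortest. The cluster of heights 34, 76 and 57 given above completes the 5 with the tallest peaks, and it alone among them had no peak at or below the median of the list. That cluster and the one on chromosome 7 each held a second peak of height 40 or more.

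The 5 most compact clusters were mostly of ordinary height. The narrowest spanned 2.44 kb on chromosome 3 from 141085022 to 141087464, with heights of 18, 25 and 22 and gaps of 83 and 285 bp, and its peaks filled 84.9% of the span. Next came a cluster of heights 25, 28 and 27 on chromosome 3 from 41722884 to 41725588. It was followed by one of heights 23, 18 and 28 on chromosome 17 from 69627478 to 69630225. The fourth, on chromosome 11 from 28778518 to 28781367, had heights of 13, 31 and 25. Of these 5, only the cluster on chromosome 12 from 5915395 to 5918649 held a tall peak, with heights of 59, 21 and 27. At the other end, the longest cluster spanned 31.6 kb on chromosome 10 from 74003230 to 74034824 and had 4 peaks of heights 29, 37, 32 and 24. A cluster of 28.3 kb on chromosome 5 from 127887054 to 127915312 had heights of 28, 21, 19 and 37. The remaining 3 of the 5 longest are the clusters on chromosomes 19, 9 and 5 described above, with 7, 5 and 4 peaks.

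Heights within a cluster were uneven. The tallest peak was a median of 1.93 times the shortest, it was at least 2 times the shortest in 86 of 189 clusters (45.5%), and it was under 1.2 times in 14. It held a median of 40.8% of the summed height of its cluster. Tall peaks, meaning a height of 40 or more, made up 11.8% of the peaks in clusters and 8.67% of the whole list. They occurred in 64 clusters, and 8 clusters held 2 or more of them. These counts follow in part from that share and were not set against it. In those 8, singled out after their heights were seen, the tall peaks were all adjacent in 5, and a lower peak lay between tall ones in 3. These 3 were the cluster of heights 42, 58, 24 and 46 given above, that of heights 45, 19 and 45 on chromosome 3 from 30534165 to 30553574 and that of heights 43, 18 and 44 on chromosome 12 from 64311589 to 64316620. In 20 clusters no peak reached 25, and in 4 none reached 20. Across the 431 neighbouring pairs the correlation of log2 height was 0.03 (Pearson), a description over pairs that share a library and, in part, a peak. It was 0.18 over the 94 pairs with a gap under 1000 bp, -0.04 from 1000 bp to under 5000 bp and 0.00 at 5000 bp or more. Over the 775 isolated pairs it was 0.09. The taller of 2 neighbours in a cluster was a median of 1.39 times the shorter, and in the isolated pairs it was 1.35 times. The ratio of tallest to shortest grows with the number of peaks compared and was not set against peaks outside clusters. The unevenness is therefore not shown to be particular to clusters.

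The place of the tallest peak varied. Among the 149 clusters of 3 peaks it came first in 45, in the middle in 45 and last in 49, and it was tied in 10. Over all clusters, the 378 outermost peaks had a median height of 26 and the 242 inner peaks had 24. The outermost peaks reached 40 in 13.5% of cases (95% Wilson interval 10.4 to 17.3) and the inner peaks in 9.09% (6.08 to 13.4), intervals that overlap.

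**Figure D2:**
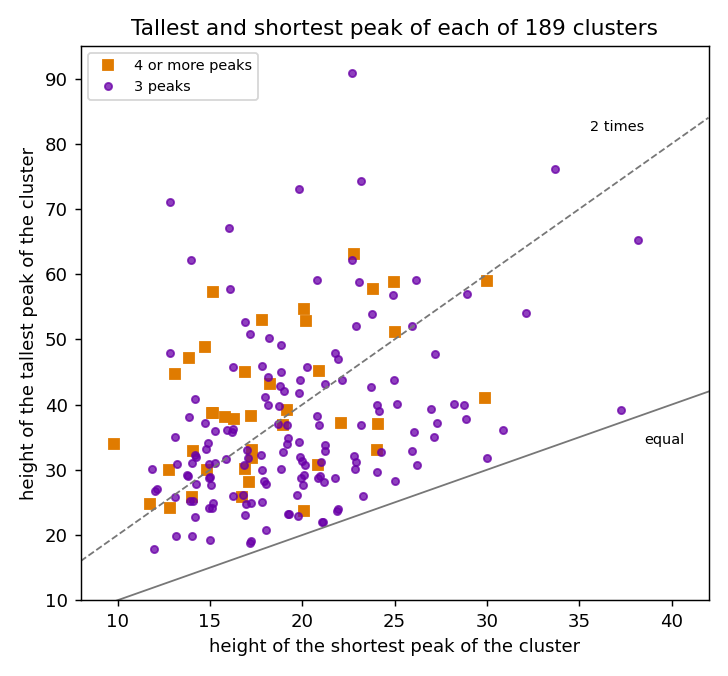
Height of the tallest peak (vertical axis) against that of the shortest peak (horizontal axis) in each of 189 clusters, both the authors' score; circles are clusters of 3 peaks, squares those of 4 or more, and points are shifted by up to 0.3 at random so that they do not hide each other. The solid line marks equal heights and the dashed line a ratio of 2; 86 clusters have a ratio of 2 or more.

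Peaks in clusters were slightly taller than the rest of the list. Their median height was 25, with an interquartile range of 20 to 32, against 24 and 19 to 30 for the 8773 other peaks. The means were 27.7 ± 11.2 in clusters and 25.6 ± 9.47 elsewhere (SD over peaks, which are not replicates). A height of 40 or more was found for 73 of 620 peaks in clusters, or 11.8% (95% Wilson interval 9.47 to 14.5), and for 741 other peaks, or 8.45% (7.88 to 9.05). Over the whole list the share was 8.67%. The Wilson intervals cover counting error only and take peaks as independent, although peaks of the same cluster share their region. Pairs lay between clusters and single peaks, at 9.94% (8.54 to 11.5) against 8.13% (7.52 to 8.78) for single peaks. Within chromosomes the order was mixed: the median height in clusters was above that of the other peaks on 13 of 22 chromosomes, below it on 7 and equal on 2.

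Most of the tall peaks lay outside clusters, as did most of the list, but their share in clusters was above that of all peaks. Of the 814 peaks of height 40 or more, 73 (8.97%) were in clusters, while clusters held 6.60% of all peaks. Of the 88 peaks of height 60 or more, 10 (11.4%) were. Heights of 60 or more made up 1.61% of peaks in clusters (95% Wilson interval 0.878 to 2.94) and 0.889% of the others (0.713 to 1.11). These intervals overlap. Without chromosomes 1, 5, 8, 10 and 20 the order was not kept. There 0.56% of peaks in clusters reached 60, against 1.84% of other peaks within 500 kb of a cluster and 0.78% of those elsewhere.

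Peaks in clusters were wider than the rest of the list. The median interval was 676.5 bp wide in clusters and 607 bp wide among the other peaks. Of the intervals in clusters, 105 (16.9%, 95% Wilson interval 14.2 to 20.1) were 900 bp or wider, against 689 of the other intervals (7.85%, 7.31 to 8.44). The share in the whole list was 8.45%. The shares were 24.3% (18.5 to 31.2) in clusters of 4 or more peaks, 14.1% (11.2 to 17.6) in clusters of 3, 10.8% (9.39 to 12.5) in pairs and 7.21% (6.64 to 7.83) among single peaks. The median width in clusters was above that of the other peaks on 21 of 22 chromosomes, the exception being chromosome 2, with 580 bp in 21 peaks of clusters and 610 bp in the others. A wide interval shortens the gap to its neighbour and so enters the rule to a small degree. When summits at most 13000 bp apart were joined instead, which leaves width out, the median width in clusters was 67 bp greater than elsewhere, against 69.5 bp by the rule. Without chromosomes 1, 5, 8, 10 and 20 the rule gave 46 bp. Neighbours with a gap under 1000 bp had a median width of 725 bp. It was 671 bp from 1000 bp to under 5000 bp and 671.5 bp at 5000 bp or more. Peaks outside clusters had 607 bp. An inner peak counts with each of its neighbours and can enter different classes, so the classes do not separate close from distant peaks.

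Because wider peaks also tended to be taller, heights were compared within 5 classes of width. Widths can still differ inside a class, most of all in the widest. Among the widest 20% of the list, from 740 to 2669 bp, the median height was 28 for 211 peaks in clusters and 25 for 1665 others, and 16.1% and 14.8% reached 40. The median was 1 unit higher in clusters in 3 of the other 4 width classes, at 23 against 22, 24 against 23 and 26 against 25 from narrow to wide. In these classes 4.29% of peaks in clusters and 2.86% of the others, 8.08% and 5.31%, and 15.2% and 12.3% reached 40. The exception was the middle class, from 578 to 647 bp, where both medians were 24, with 6.32% of peaks in clusters and 7.62% of the others at 40 or more. When the other peaks were weighted to the shares of these width classes in clusters, 10.3% of them reached 40. The difference from clusters was then 1.52 percentage points instead of 3.33. That weighted share lies inside the Wilson interval of the peaks in clusters. The rank correlation of height and width was 0.18 over the 620 peaks in clusters and 0.14 over the other peaks (Spearman, given as a description).

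**Figure D3:**
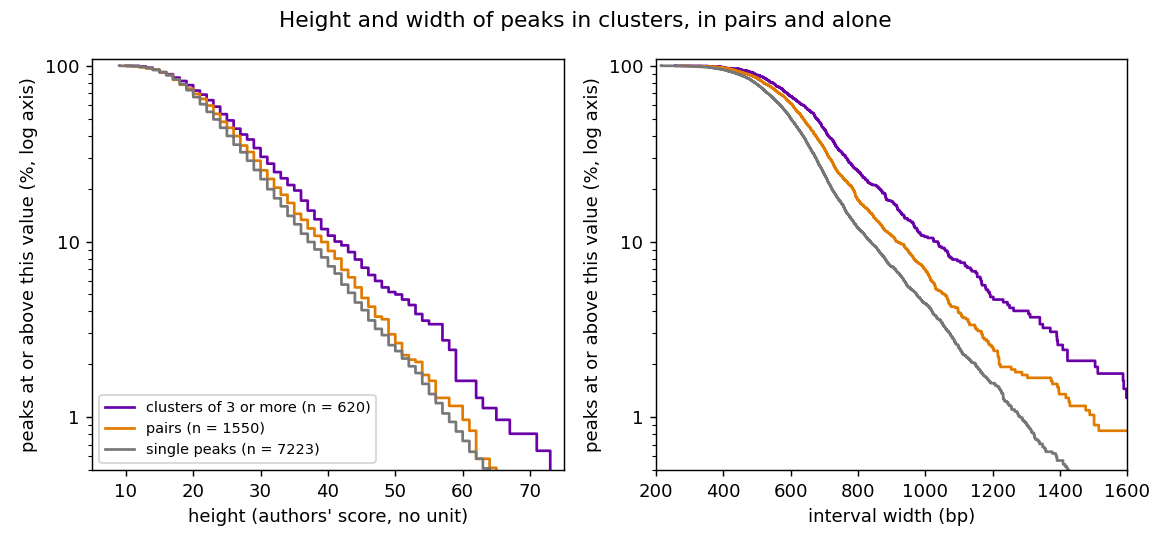
Percentage of peaks at or above each height (left, the authors' score) and each interval width in bp (right), on a log vertical axis, for the 620 peaks in clusters, the 1550 in pairs and the 7223 single peaks. The curve of the clusters runs highest in both panels over most of the range, with 11.8%, 9.94% and 8.13% of peaks at a height of 40 or more.

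Clusters lay in neighbourhoods rich in other peaks. Within 500 kb of their outer edges, clusters had a mean of 6.45 ± 4.10 further peaks (SD over 189 clusters), pairs had 5.36 ± 3.82 (SD over 775 pairs) and single peaks had 4.42 ± 3.30 (SD over 7223 peaks). At least 10 further peaks were found around 41 clusters (21.7%), 108 pairs (13.9%) and 527 single peaks (7.30%), and none around 3 clusters (1.59%) and 438 single peaks (6.06%). The mean was higher around clusters than around the other groups on 18 of 22 chromosomes. This count leaves out the cluster itself, yet both it and the rule measure closeness of peaks, so it describes the setting of the clusters and does not support the rule. The richest setting was that of a cluster on chromosome 8 from 128817574 to 128824206, with 22 further peaks within 500 kb. The next, on chromosome 5 from 148493053 to 148509289, had 19. That on chromosome 8 from 129188567 to 129197393 and that on chromosome 5 from 148289923 to 148294842 had 18 each.

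The peaks around clusters had heights close to those inside them, and both sets stood above the peaks elsewhere. Within 500 kb of a cluster, 934 peaks that belonged to no cluster had a median height of 25, and 121 of them, or 13.0% (95% Wilson interval 11.0 to 15.3), reached 40. Inside clusters the median was also 25 and the share 11.8% (9.47 to 14.5), so a difference between these 2 sets was not detectable at these counts. The share inside less that around clusters was -1.18 percentage points at 500 kb, -3.78 at 100 kb and 0.43 at 1000 kb, so its sign depended on the distance. The remaining 7839 peaks had a median of 23, and 7.91% of them (7.33 to 8.53) reached 40. The mean height of the peaks near clusters was above that of the peaks elsewhere on 18 of the 21 chromosomes that had both. Against these near peaks, peaks in clusters had the higher mean on 9 chromosomes and the lower on 12. Without chromosomes 1, 5, 8, 10 and 20, where earlier results had found dense or tall peaks, the shares at 40 or more were 11.2% inside clusters, 10.8% around them and 7.33% elsewhere. The median width was 676.5 bp in clusters, 639 bp around them and 604 bp elsewhere. Intervals of 900 bp or more made up 16.9% (14.2 to 20.1), 12.7% (10.8 to 15.0) and 7.27% (6.72 to 7.87) of these 3 sets. The Wilson intervals inside and around clusters overlap here too. Without the same chromosomes the median widths were 646, 625 and 598 bp. The shares at 900 bp or more were then 11.5% (8.58 to 15.2), 9.82% (7.48 to 12.8) and 6.38% (5.77 to 7.06).

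**Figure D4:**
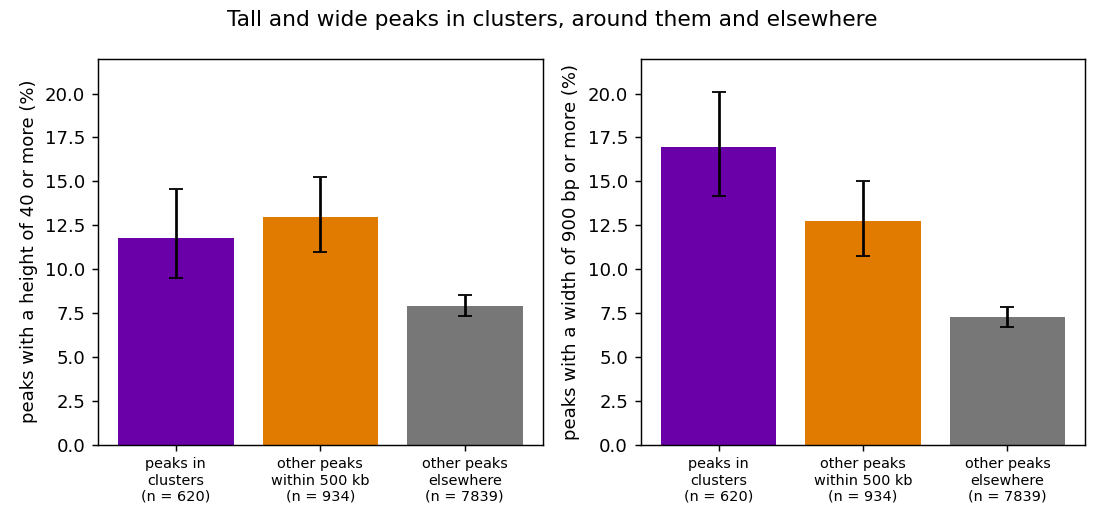
Percentage of peaks with a height of 40 or more (left) and with a width of 900 bp or more (right) among peaks in clusters, other peaks within 500 kb of a cluster and other peaks elsewhere; bars start at 0 and error bars are 95% Wilson intervals. The peaks in clusters and those around them have 11.8% and 13.0% of tall peaks, with overlapping intervals, and the peaks elsewhere have 7.91%.

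Clusters were spread unevenly over the chromosomes. Chromosome 1 held 33, chromosomes 3 and 5 held 19 each, chromosome 12 held 14 and chromosome 20 held 13. The share of a chromosome's peaks that lay in clusters was highest on chromosome 20, at 11.5% of 355 peaks, followed by chromosome 1 with 11.0% of 1009 and chromosome 3 with 10.1% of 632. Chromosome 2 had 780 peaks but only 7 clusters, with 2.69% of its peaks, and chromosome 6 had 541 peaks and 5 clusters, with 2.96%. Chromosome 22, with 121 peaks, had none. Chromosomes 1, 5, 8, 10 and 20 together held 78 clusters, or 41.3% of them, and 32.3% of all peaks. They were grouped because earlier results had found dense or tall peaks there, and the rule also measures closeness, so this share is a description. The set was mixed: 9.01% of the peaks of chromosome 5 were in clusters, but 5.84% on chromosome 8 and 3.36% on chromosome 10. The whole list had 6.60%.

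On chromosome 5 most clusters lay in its distal part. Beyond 120 Mb there were 14 clusters with 50 of 400 peaks (12.5%), and before it 5 clusters with 18 of 355 peaks (5.07%). A fixed joining distance gathers more peaks where peaks are denser, and these shares were not adjusted for density. The division at 120 Mb follows earlier results on the heights of these peaks, so heights on its sides are a description. Beyond it the median height was 29.5 in clusters and 26 among the other peaks, and before it both medians were 22. On chromosome 1 the share of peaks in clusters was 10.6% of 568 beyond 140 Mb and 11.6% of 441 before it. The median heights there were 25 in clusters and 25 among the others beyond 140 Mb, and 26 and 23 before it. On chromosome 20 the peaks in clusters had a median height of 30 and the others 27.

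**Figure D5:**
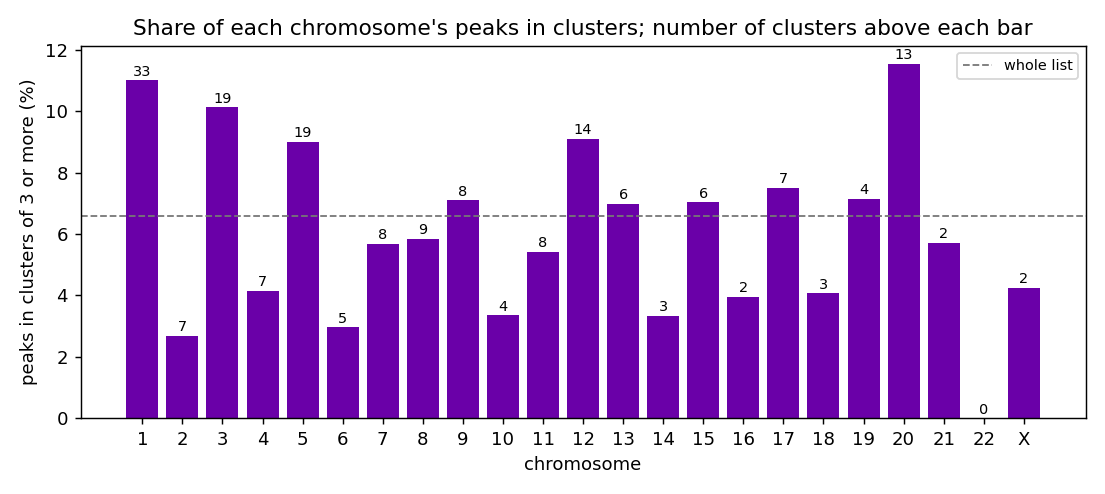
Percentage of each chromosome's peaks that lie in clusters of 3 or more (bars, from 0), with the number of clusters above each bar and the whole-list share of 6.60% as a dashed line. Chromosomes 20, 1 and 3 exceed 10%, and chromosome 22 has no cluster.

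Some clusters were themselves neighbours. Successive clusters on a chromosome were a median of 6.48 Mb apart, but 31 of 167 successive pairs lay within 1000 kb and 8 within 100 kb. The closest were on chromosome 5, where the cluster of 4 from 125709359 to 125730618 was followed after 38.7 kb by another cluster of 4 from 125769277 to 125782795, with tallest peaks of 59 and 38. Also on chromosome 5, 48.1 kb separated clusters of 3 from 172313787 to 172330488 and from 172378636 to 172383085, with tallest peaks of 37 and 46. On the same chromosome, 50.1 kb separated the cluster of heights 34, 76 and 57 from the cluster of 6 peaks that starts at 148344982. With the cluster of 3 peaks that starts at 148493053, 12 peaks in 3 clusters lay between 148289923 and 148509289. On chromosome 20, 60.3 kb lay between a cluster with a tallest peak of 62, from 36737969 to 36751964, and one whose tallest peak was 32, from 36812273 to 36827394.

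The joining distance decided which groups counted. Just inside it, 9 clusters held a gap between 12008 and 12481 bp, and 7 of them, with 22 peaks, would have had under 3 joined peaks without it. Those 7 had a median height of 25.5 and a median width of 773.5 bp. Just outside it, 4 groups with 12 peaks would have formed with gaps of up to 13000 bp, and they had medians of 23 and 677 bp.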

How the data were processed

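Chromatin fixed with formaldehyde and sheared by sonication was enriched on Flag-M2 beads and sequenced on a HiSeq instrument, per the labels' protocols. BWA 0.6.1, MACS and hg19 are named in the submitters' processing notes. No source used here gives the MACS version, its threshold or whether the input was its control. Per the file headers, the authors deposited a summit track, in which each peak has a score that is called the height here, and an interval track. Lines of both were matched by order, and all 9393 summits lay inside their interval. The score has no stated unit and served only to describe and order peaks inside the list.

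Clusters were formed as described in the report, with Python 3.11.15, numpy 2.4.6, pandas 2.3.3, scipy 1.17.1 and matplotlib 3.10.9, and the joining step was tested on simulated data. A single library allows no test between samples, and no p-value is given. The members and the lists were chosen with earlier results of these data known. Clusters were named by a rule: those of 5 or more peaks, the 10 with the highest summed height, the 5 with the tallest peak, and the 5 shortest and 5 longest. Others were added, after their values were seen, where the text singles them out. The gene table at hand is of GRCh38 and the peaks are of hg19, so clusters carry no gene names, the gene lists were not used and no sequence of a cluster is shown. Alternatives were other joining distances, minimum sizes, merged intervals, other sets of peaks and chromosomes left out.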

Additional observations from a re-analysis of the deposited data

How the results depend on the processing

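No paired analysis was possible because each group is a single library. Joining at 5000 bp gave 71 clusters with 221 peaks and at 25000 bp 335 with 1150, against 189 with 620. Without chromosomes 1, 5, 8, 10 and 20 there were 111 with 357 peaks, and among peaks higher than the median of the list alone 39 with 126, both from fewer peaks by construction. The median width in clusters less that elsewhere was 46 bp without the same chromosomes, where the cause was not tested, and 46 bp when pairs counted as clusters, against 69.5 bp. The settings that follow, joining by summits and weighting by width were chosen after seeing the data. The share of peaks of height 40 or more in clusters less that around them was -1.18 percentage points within 500 kb, -3.78 within 100 kb, 0.43 within 1000 kb and 0.37 without the 5 chromosomes, so its sign depended on these choices; the cause was not tested. The number of further peaks around clusters was 1.43 times that around other groups within 500 kb, 1.76 times within 100 kb and 1.28 times within 1000 kb. The other 32 values kept their direction and moved within their counting error, or within 1.5 times for counts. Settings for motifs, start sites and gene lists need an hg19 reference and were not run. All values are limited by the lack of a replicate and of read counts.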
